A study of Mus musculus with 6 samples.

Results

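The genes described here are 10 acid-base genes of renal intercalated cells, named by symbol and read from a count table of 55401 genes in isolated mouse glomeruli. All 10 were found by symbol, each with a single gene model, and all 10 were among the 19717 genes that passed the filter on low counts. They are Slc4a1, Slc26a4, Slc4a9, Foxi1, Atp6v1g3, Atp6v0d2, Atp6v1b1, Atp6v0a4, Rhcg and Oxgr1. The study compared 3 Control libraries with 3 libraries labelled DKD, which stands for diabetic kidney disease. The labels give Control and DKD as the genotype. Strain, age, sex, the way diabetes was induced, and whether each library came from its own animal are not stated in the labels, so p-values measure only the spread between these libraries. The series asked about histone methyltransferase transcripts in DKD glomeruli.

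Intercalated cells are acid-base cells of the connecting tubule and collecting duct, tubule segments that lie outside the glomerulus. Type A cells secrete acid through an apical proton pump, the V-ATPase, and return bicarbonate to the blood through the basolateral anion exchanger encoded by Slc4a1. Type B cells secrete bicarbonate through the apical exchanger pendrin, encoded by Slc26a4, and carry the basolateral transporter encoded by Slc4a9. The transcription factor Foxi1 is needed for these cells to form and for several of their transporter genes to be expressed. In RNA of a glomerular preparation, the amount of tubule in it, the number of cells of a type and the RNA per cell cannot be told apart.

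The library totals ran from 71154026 to 83576494 counts, and the members had between 1108 and 23155 counts in a library, so that the spread between replicates and not counting error limits the comparisons. Levels are in CPM (TMM-scaled counts relative to the library size), and each ± beside a level is an SD over 3 libraries. Podocyte markers were present: Nphs1 was measured at 24.8 to 55.6 CPM and Podxl at 142.3 to 275.8 CPM over the 6 libraries. No reference level was at hand, so their presence does not measure how pure the glomeruli were. Tubule RNA was plentiful beside podocyte RNA. Podocyte markers summed to 404.9 to 762.0 CPM, thick limb markers to 2765 to 6367 CPM and proximal tubule markers to 12270 to 47980 CPM. Control replicate 3 stood apart. On the first principal component of log2 CPM it lay at −101, against −18.0 and −15.0 for the other Control libraries, and its proximal tubule markers summed to 47980 CPM, against 21570 and 24460. DKD replicate 3 lay at 79.7 on that component, against 27.1 and 27.5 for the other DKD libraries. Its proximal tubule markers summed to 12270 CPM, against 20220 and 22380. Without DKD replicate 3 edgeR called 0 members and 10 of 20383 genes. Leaving out Control replicate 3 changed the call of Slc4a1 and moved the fold changes of other members. Those values stand beside Slc4a1, Slc26a4, Slc4a9, Oxgr1, Foxi1 and Rhcg.

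No member passed the edgeR test across all genes at a Benjamini-Hochberg adjusted p under 0.05. The log2 fold change of DKD over Control was below 0 for all 10 members, as it was for 49.8% of all genes tested, and it stayed below 0 for all 10 under the other 3 ways of scaling the libraries. Their median log2 fold change was −0.38, against 0.00294 for all genes. An adjusted p under 0.05 with lower levels in DKD was reached by 0.431% of all genes. At an unadjusted p under 0.05, 5 of the 10 members were lower in DKD, against 10.9% of all genes. The DKD and Control libraries did not overlap for the same 5 genes, all lower in DKD, where 15.2% of all genes were lower without overlap. These 5 were Slc26a4, Oxgr1, Slc4a1, Atp6v1b1 and Atp6v0a4. DESeq2 called 4 of the 10 lower, all but Atp6v0a4 of those 5, with 6.20% of its genes called in that direction. With limma-voom 0 members were called (0.396% of all genes were, in that direction) and 5 had an unadjusted p under 0.05, against 10.8% of all genes in that direction. With library totals as the only scaling edgeR called 3 members lower, against 0.882% of all genes. With genes kept at 1 CPM or more in 3 or more libraries it also called 3, against 1.29%.

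**Figure D1:**
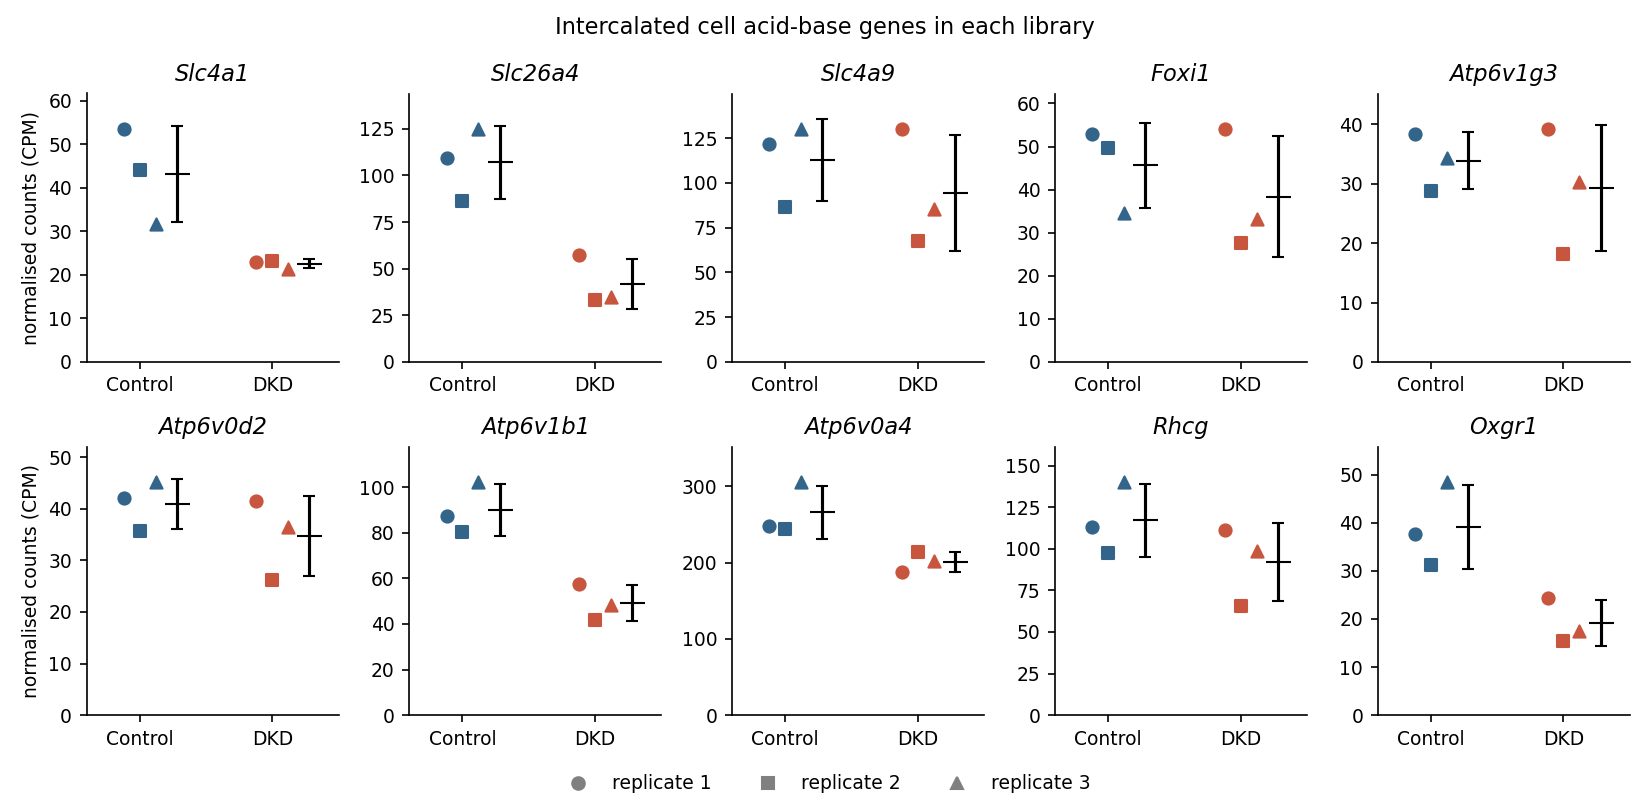
Each panel plots 1 gene, with TMM-scaled CPM on the vertical axis from 0, the groups on the horizontal axis, 1 point per library (marker shape gives the replicate number), and the mean ± SD as a bar beside the points. The DKD points lie below all Control points for Slc4a1, Slc26a4, Atp6v1b1, Atp6v0a4 and Oxgr1, and the groups overlap for the other 5 genes.

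Promoter sequences are shown for 3 of the 4 members with the lowest log2 fold changes, since these genes were lower in the same libraries. They come from RefSeq on build GRCm38.p6, which precedes the build of the counts, and cover 250 bases before to 50 bases after the start site. The table holds 7 of the 10 members, and Slc4a1, Slc4a9 and Atp6v0d2 were not among them. Letters in capitals mark a match to a forkhead core, searched as TGTTTA and TGTTTG on both strands, the 2 words being distinct and of the same length. Sequences are written 5′ to 3′ on the gene's strand, at chr12:31559935-31560234 (minus strand) for Slc26a4, chr6:83742767-83743066 (plus strand) for Atp6v1b1 and chr14:120042386-120042685 (minus strand) for Oxgr1.
Slc26a4: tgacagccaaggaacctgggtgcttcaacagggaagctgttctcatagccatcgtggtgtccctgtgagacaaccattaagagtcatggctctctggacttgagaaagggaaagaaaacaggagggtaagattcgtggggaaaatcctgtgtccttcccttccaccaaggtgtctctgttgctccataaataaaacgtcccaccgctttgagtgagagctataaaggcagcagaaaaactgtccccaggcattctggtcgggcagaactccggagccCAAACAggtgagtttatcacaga
Atp6v1b1: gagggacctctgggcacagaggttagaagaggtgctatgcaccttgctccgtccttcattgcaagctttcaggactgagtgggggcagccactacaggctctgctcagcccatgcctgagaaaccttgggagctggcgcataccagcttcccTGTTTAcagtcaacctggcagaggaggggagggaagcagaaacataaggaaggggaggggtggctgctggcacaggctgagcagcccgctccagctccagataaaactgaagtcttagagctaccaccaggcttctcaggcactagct
Oxgr1: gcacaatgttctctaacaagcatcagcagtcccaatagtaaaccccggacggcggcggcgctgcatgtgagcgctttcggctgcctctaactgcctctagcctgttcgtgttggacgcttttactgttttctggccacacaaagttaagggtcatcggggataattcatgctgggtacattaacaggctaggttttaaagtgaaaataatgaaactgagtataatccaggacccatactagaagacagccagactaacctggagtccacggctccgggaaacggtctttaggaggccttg
The Atp6v1b1 promoter held TGTTTA on its own strand, from 98 to 93 bases before the start site. The Slc26a4 window held TGTTTG on the opposite strand, at bases 28 to 33 of the transcribed part. The Oxgr1 window, and those of Foxi1, Atp6v0a4 and Rhcg, held neither word. The Atp6v1g3 window held TGTTTG on the opposite strand, from 66 to 61 bases before the start site. At least 1 of the words was thus found in 3 of the 7 member windows, against 28.2% of 32851 promoters of the same length. TGTTTA was found in 13.4% of those promoters and TGTTTG in 18.2%. A match describes letters in this window and does not show that a factor binds there.

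The anion exchangers differed in how far apart the groups lay. Slc26a4, the bicarbonate-secreting exchanger of type B cells (ENSMUSG00000020651), was measured at 109.4, 86.5 and 125.2 CPM in Control replicates 1 to 3. In DKD replicates 1 to 3 it was at 57.1, 33.5 and 34.8 CPM. Every DKD library lay below every Control library, and DKD replicate 1 was the highest of its group. The means were 107.0 ± 19.5 and 41.8 ± 13.3 CPM, with a log2 fold change of −1.36 ± 0.24 (SE), a fitted DKD level of 39.0% of Control, and an edgeR adjusted p of 0.0529. Its fold change was the lowest of the 10. With Oxgr1 it was 1 of 2 members with a log2 fold change of −1 or below, a size reached by 5.13% of all genes. Without Control replicate 3 the log2 fold change of Slc26a4 was −1.23 ± 0.25. The adjusted p lay just above the threshold, and over 16 alternative settings it ran from 1.86e-05 with DESeq2 to 0.169.

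Slc4a1 (ENSMUSG00000006574), the basolateral exchanger of type A cells, was measured at 53.6, 44.0 and 31.8 CPM in Control, and at 23.0, 23.2 and 21.3 CPM in DKD, in replicate order. The groups did not overlap, and the Control libraries spread more widely than the DKD libraries, with Control replicate 3 the lowest of its group. The log2 fold change was −0.94 ± 0.19, with an edgeR adjusted p of 0.0592. Without Control replicate 3 the log2 fold change was −1.12 ± 0.12 and Slc4a1 passed, with an adjusted p of 0.0193. It was then the only member that passed, with 0.736% of all genes called lower. The same gene encodes the major anion exchanger of the red cell membrane. Summed erythrocyte transcripts lay between 390.5 and 784.9 CPM in the Control libraries, and between 303.7 and 1412 CPM in the DKD libraries. They were highest in DKD replicate 2, where Slc4a1 was at 23.2 CPM, the highest of the DKD values, and highest among Control libraries in replicate 3, where Slc4a1 was lowest. The part of red cells in the Slc4a1 level was not tested.

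Slc4a9 (ENSMUSG00000024485), the basolateral partner of pendrin in type B cells, did not separate the groups. It was measured at 121.6, 86.5 and 130.1 CPM in Control, and at 130.3, 67.5 and 85.2 CPM in DKD. DKD replicate 1 lay at the level of the highest Control library, while DKD replicates 2 and 3 lay below all of them. The log2 fold change was −0.26 ± 0.26, with an edgeR adjusted p of 0.610. It moved with single libraries: among the Control libraries, omitting replicate 3 gave −0.14 and omitting replicate 2 gave −0.42. Among the DKD libraries, omitting replicate 1 gave −0.56 and omitting replicate 2 gave −0.083. The ratio of Slc26a4 to Slc4a9, in CPM per kilobase of exonic sequence, was 1.85, 2.06 and 1.98 in Control and 0.902, 1.02 and 0.842 in DKD. This ratio of a pair of type B genes therefore varied little within each group and did not overlap between groups. It was chosen after the values were seen, and no test is given for it.

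Oxgr1 (ENSMUSG00000044819) encodes a receptor for alpha-ketoglutarate, a luminal metabolite that it senses in type B cells. It was measured at 37.6, 31.2 and 48.5 CPM in Control, and at 24.4, 15.4 and 17.4 CPM in DKD. The groups did not overlap, and the order of the DKD libraries was that of Slc26a4. Its log2 fold change was −1.03 ± 0.23, with an edgeR adjusted p of 0.0675, and DESeq2 gave an adjusted p of 0.00141. Without Control replicate 3 the log2 fold change was −0.85 ± 0.21, and thus no longer −1 or below.

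Foxi1 (ENSMUSG00000047861), the transcription factor, was measured at 52.9, 49.7 and 34.5 CPM in Control, and at 54.2, 27.6 and 33.3 CPM in DKD. The highest value of all 6 libraries was that of DKD replicate 1, and the groups overlapped. The log2 fold change was −0.25 ± 0.27, with an edgeR adjusted p of 0.629. Leaving out 1 library gave values from −0.59 without DKD replicate 1 to −0.077 without DKD replicate 2. Among the Control libraries, omitting replicate 3 gave −0.42 and omitting replicate 1 gave −0.13, and omitting replicate 3 of DKD gave −0.16. The ratio of Slc26a4 to Foxi1 in CPM per kilobase was 1.57, 1.32 and 2.75 in Control and 0.799, 0.919 and 0.794 in DKD. The ratio of Slc4a1 to Foxi1 was 0.488, 0.427 and 0.444 in Control and 0.204, 0.405 and 0.309 in DKD. Neither ratio overlapped between the groups, although DKD replicate 2 came near the Control libraries for Slc4a1. By contrast the ratio of Slc26a4 to Slc4a1 lay between 3.09 and 6.20 in the Control libraries, and between 2.27 and 3.91 in the DKD libraries, so it overlapped. These ratios too were chosen after the values were seen, and no test is given for them.

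The V-ATPase has a membrane sector, which conducts protons, and a peripheral sector, which hydrolyses ATP. Several subunits have isoforms known from intercalated cells, which need not be theirs alone. The part of other tubule cells in the levels of these isoforms was not tested. Atp6v1b1 (ENSMUSG00000006269), the B subunit isoform of the ATP-hydrolysing sector, was measured at 87.3, 80.2 and 102.4 CPM in Control, and at 57.7, 41.9 and 48.3 CPM in DKD. No DKD library reached the lowest Control library. The log2 fold change was −0.87 ± 0.16 and the edgeR adjusted p 0.0538. Atp6v0a4 (ENSMUSG00000038600), an a subunit isoform of the membrane sector, was at 247.9, 243.9 and 306.0 CPM in Control, and at 187.6, 213.7 and 202.6 CPM in DKD. The groups were also apart for this gene, by less, and the order of the DKD libraries was not that of the other members. Its log2 fold change was −0.40 ± 0.14, with an edgeR adjusted p of 0.156. Another gene covers 5.21% of its exonic bases on the same strand and a further gene 1.25% on the opposite strand, so a small part of its reads may be shared. No other member overlapped another gene's exons.

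The remaining pump subunits overlapped between groups. Atp6v1g3 (ENSMUSG00000026394), a G subunit isoform of the peripheral stalk, was measured at 38.5, 28.9 and 34.4 CPM in Control, and at 39.3, 18.1 and 30.3 CPM in DKD. Its log2 fold change was −0.21 ± 0.27, with an edgeR adjusted p of 0.682. Without DKD replicate 2, the lowest library, the value was 0.022 ± 0.18, so its direction rested on that library. With DKD replicate 1 omitted it was −0.49, and with Control replicate 1 omitted −0.11. Atp6v0d2 (ENSMUSG00000028238), a d subunit isoform of the membrane sector, was at 42.0, 35.7 and 45.2 CPM in Control, and at 41.5, 26.2 and 36.6 CPM in DKD. Its log2 fold change was −0.24 ± 0.18, with an edgeR adjusted p of 0.488, and it ran from −0.38 without DKD replicate 1 to −0.087 without DKD replicate 2. Atp6v0d2 is also known from osteoclasts and macrophages. Summed macrophage and osteoclast markers lay between 144.7 and 197.2 CPM in the Control libraries, and between 157.0 and 230.0 CPM in the DKD libraries. Of the 9 tested, 7 were higher in DKD, as were 9907 of all 19717 genes. At an unadjusted p under 0.05, 1 was higher, against 2317 of all genes. It was Acp5 (49.1 ± 3.65 and 68.8 ± 13.1 CPM, edgeR adjusted p 0.134). The part of macrophages and osteoclasts in the Atp6v0d2 level was not tested.

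Rhcg (ENSMUSG00000030549), an ammonia channel through which the collecting duct passes ammonia to the urine, is also found in principal cells. It was measured at 113.4, 97.4 and 140.3 CPM in Control, and at 111.1, 65.7 and 98.8 CPM in DKD. The groups overlapped, with DKD replicate 2 alone below every Control library. A log2 fold change of −0.35 ± 0.22 was fitted, with an edgeR adjusted p of 0.398. With Control replicate 3 omitted it was −0.20, and with DKD replicate 2 omitted −0.18.

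**Figure D2:**
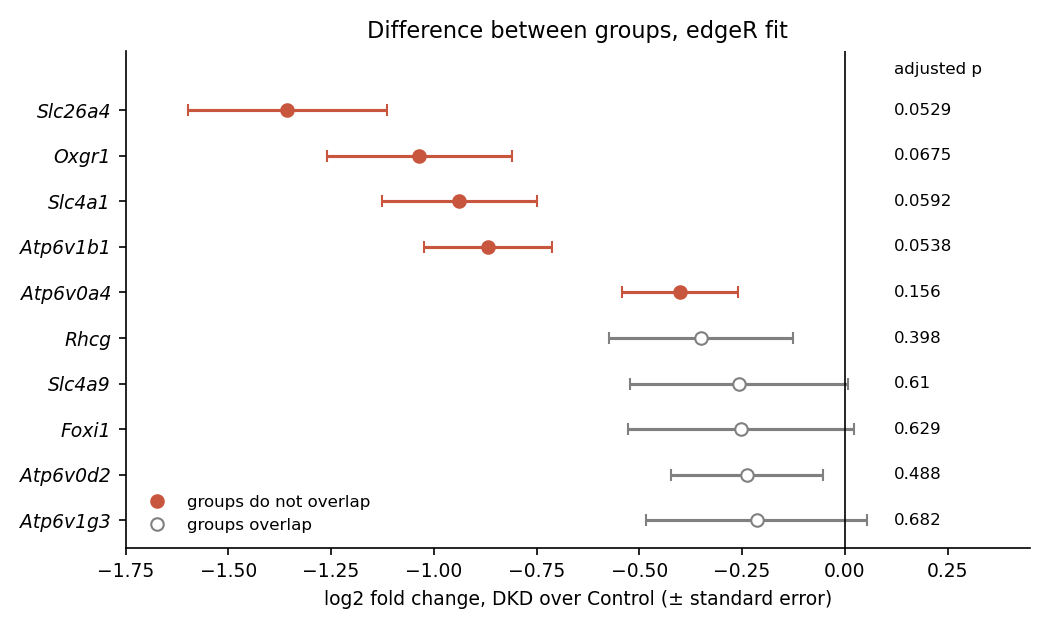
Points are the log2 fold changes of DKD over Control from the edgeR fit, with horizontal bars of 1 standard error, 1 row per gene, and the adjusted p over all genes tested printed at the right. Filled points mark genes whose groups do not overlap: they lie between −1.36 and −0.40, and the open points of the other 5 genes lie between −0.35 and −0.21.

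Most members had a similar order of libraries within a group, and the share of all genes with that order was not counted. DKD replicate 2 was the lowest of all 6 libraries for 8 of the 10 members, and DKD replicate 1 was the highest DKD library for 8 of them. Among the Control libraries, replicate 2 was the lowest for 8 members and replicate 3 the highest for 7. Slc4a1 and Foxi1 went against this order in Control, where replicate 3 was their lowest library. Slc4a1 and Atp6v0a4 went against it in DKD, where replicate 2 was their highest library. For all 5 members whose groups overlapped, DKD replicate 1 was the highest DKD library. That it lay above the lowest Control library follows from the overlap itself. DKD replicate 2 lay below all Control libraries for these 5 members. Without DKD replicate 1 the median log2 fold change of the 10 members was −0.57, and 0 passed with edgeR (0.00976% of all genes did, lower in DKD), while 6 were lower at an unadjusted p under 0.05, against 7.11% of all genes. Without DKD replicate 2 the median was −0.32, and 9 of the 10 were lower.

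**Figure D3:**
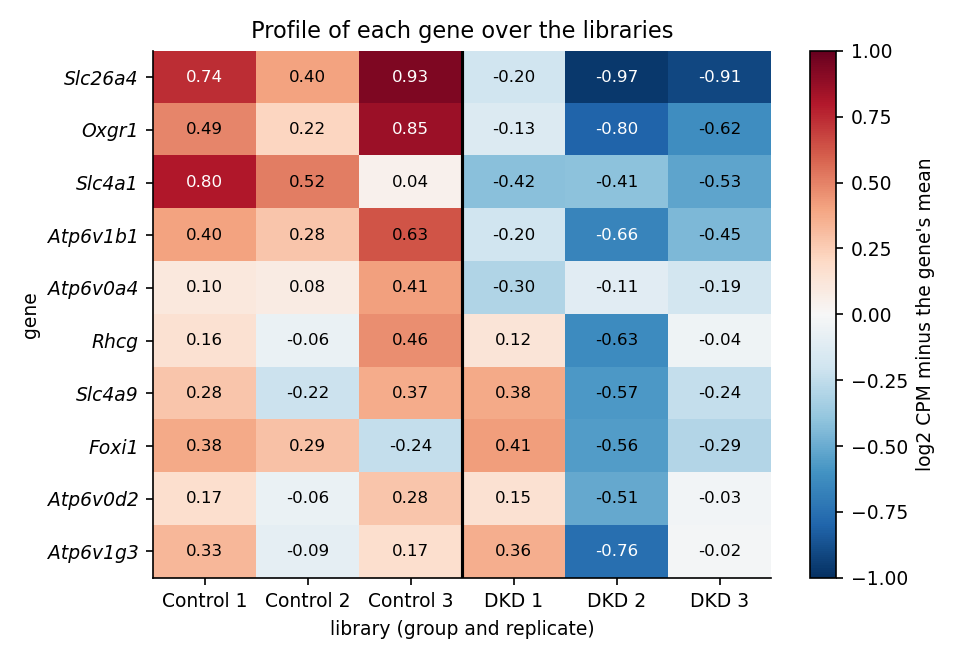
Each cell gives a gene's log2 CPM in 1 library minus that gene's mean over the 6 libraries (red above, blue below), with genes ordered by fold change from the lowest at the top. The DKD replicate 2 column is below 0 for every gene, from −0.97 for Slc26a4 to −0.11 for Atp6v0a4, while DKD replicate 1 is above 0 for the lower 5 genes in the plot.

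Between genes, levels can be compared only per length, as CPM per kilobase of exonic sequence. In Control the highest were Atp6v0a4 at 53.5 ± 6.99 and Rhcg at 52.4 ± 9.72 CPM per kilobase, whose ranges overlapped. Slc26a4 came next at 34.4 ± 6.27, apart from its neighbours on both sides. Atp6v1b1 (20.5 ± 2.59), Foxi1 (19.4 ± 4.18), Atp6v1g3 (18.0 ± 2.56), Slc4a9 (17.6 ± 3.61) and Atp6v0d2 (15.1 ± 1.78) followed, each overlapping its neighbours in that group. Oxgr1 (10.5 ± 2.35) and Slc4a1 (8.82 ± 2.24) were the lowest and overlapped each other. In DKD, Rhcg (41.2 ± 10.5) and Atp6v0a4 (40.5 ± 2.63) stayed at the top in CPM per kilobase, and Slc26a4 moved from the third place to the sixth, at 13.4 ± 4.27, within the range of its neighbours Slc4a9 (14.7 ± 5.06) and Atp6v0d2 (12.8 ± 2.87). Exonic length here joins all annotated exons of a gene, so a gene with a shorter kidney transcript is understated.

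Each intercalated cell subunit has a more widely expressed counterpart, and their ratio in CPM per kilobase was compared within each library for 4 pairs, added after the data were seen. The ratio of Atp6v0a4 to Atp6v0a1 was 5.47, 5.32 and 7.19 in Control and 4.27, 4.42 and 4.53 in DKD, without overlap (exact permutation p = 0.1, two-sided). That of Atp6v1g3 to Atp6v1g1 was 0.198, 0.170 and 0.168 in Control and 0.149, 0.0950 and 0.120 in DKD, also without overlap (exact permutation p = 0.1). Both had a Benjamini-Hochberg adjusted p of 0.2 over the 4 pairs in these exact permutation tests, and 0.1 is the smallest p that 3 against 3 libraries allow. The ratio of Atp6v1b1 to Atp6v1b2 lay between 0.264 and 0.314 in the Control libraries, and between 0.195 and 0.267 in the DKD libraries (exact permutation p = 0.2, adjusted 0.267). That of Atp6v0d2 to Atp6v0d1 ran from 0.244 to 0.304 and from 0.167 to 0.266 (exact permutation p = 0.4). Atp6v1b1 itself was apart between groups while its ratio was not. Its counterpart Atp6v1b2 averaged 381.4 ± 76.2 CPM in Control libraries and 253.3 ± 12.9 CPM in DKD libraries, and the log2 fold change was −0.59 ± 0.17 (edgeR adjusted p 0.109).

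**Figure D4:**
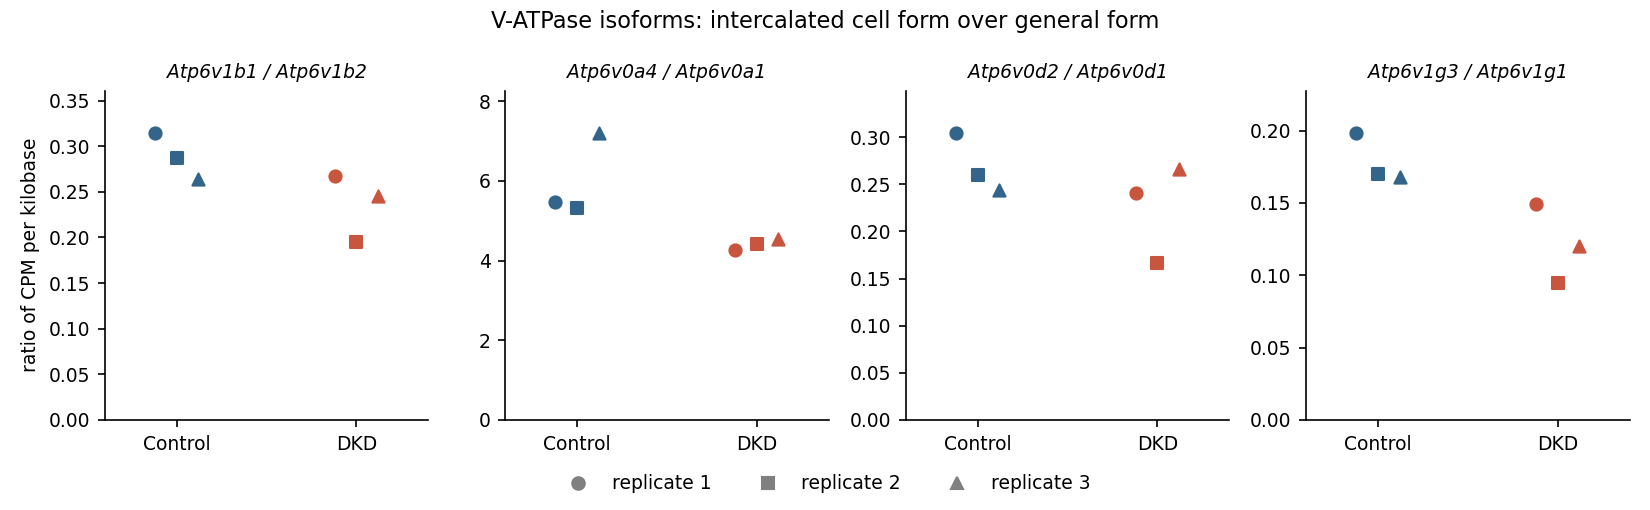
The vertical axes, which start at 0, give the ratio of CPM per kilobase of the intercalated cell subunit to that of its general counterpart, 1 panel per pair and 1 point per library (marker shape gives the replicate number). The DKD points lie below all Control points for Atp6v0a4 over Atp6v0a1 (4.27 to 4.53 against 5.32 to 7.19) and for Atp6v1g3 over Atp6v1g1, and they overlap for the other pairs.

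Of all 19717 genes tested, edgeR called 143 higher and 85 lower, and 9907 had a fold change above 0. At an unadjusted p under 0.05, 2317 of all genes were higher and 2141 lower. DESeq2 called 2483 of 18167 genes, 1127 of them lower. With limma-voom 204 genes were called, 78 of them lower, and with library totals 275, 174 of them lower. Of 18 V-ATPase subunits and accessory proteins used by cells in general, 1 rose and 0 fell with edgeR, and 12 had a fold change above 0, with a median log2 fold change of 0.06. At an unadjusted p under 0.05, 3 were higher and 2 lower. The 1 that rose was Tcirg1, an a subunit isoform (35.8 ± 4.11 to 58.0 ± 1.46 CPM, log2 fold change 0.69 ± 0.12, edgeR adjusted p 0.0457). Scaled by library totals alone, the list had a median of −0.05, Tcirg1 did not pass, and Atp6v1b2 was called lower. DESeq2 called both genes, and limma-voom Tcirg1 alone. Of 19 other genes known from intercalated cells, 1 rose and 0 fell with edgeR, 13 were lower, and the median was −0.27. At an unadjusted p under 0.05, 2 were higher and 4 lower, while limma-voom called 1 higher and 0 lower. Car15, a membrane-bound carbonic anhydrase, rose from 84.1 ± 9.19 to 199.9 ± 34.5 CPM (log2 fold change 1.25 ± 0.16, edgeR adjusted p 0.0267). DESeq2 called 2 of the 19 higher, Car15 and Tfcp2l1, a transcription factor of the collecting duct at 318.2 ± 35.4 and 465.4 ± 75.1 CPM (log2 fold change 0.55 ± 0.17, edgeR adjusted p 0.130). In this list 3 genes were called lower by DESeq2 and with library totals but not by edgeR as reported, and these and Tfcp2l1 were picked for naming once their values were known. Rhbg, the basolateral ammonia channel, was at 45.8 ± 3.02 and 24.8 ± 5.59 CPM (log2 fold change −0.88 ± 0.17, edgeR adjusted p 0.0573). Insrr, an alkali-sensing receptor, was at 42.2 ± 9.67 and 17.8 ± 5.85 CPM (−1.24 ± 0.26, edgeR adjusted p 0.0633). Car12, another membrane-bound carbonic anhydrase, was at 265.6 ± 55.8 and 152.4 ± 20.2 CPM (−0.80 ± 0.19, edgeR adjusted p 0.0793). Of 11 genes of acid-base transport and ammonia formation in the proximal tubule, 0 passed with edgeR, 3 were higher and 1 lower at an unadjusted p under 0.05, and the median was 0.09 (−0.04 with library totals). DESeq2 called 2 higher and limma-voom 0. The lowest p was that of Pck1, an enzyme of gluconeogenesis that acts with ammonia formation, at 1301 ± 723.7 and 6020 ± 1467 CPM (log2 fold change 2.21 ± 0.42, edgeR adjusted p 0.0573). Next was the glutamine transporter Slc38a3, at 1.26 ± 0.33 on the log2 scale (edgeR adjusted p 0.0928).

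Markers of neighbouring segments are given beside these values. The members summed to 783.9 to 998.4 CPM in Control and to 532.7 to 726.3 CPM in DKD. The 12 principal cell markers, from the other cell type of the collecting duct, summed to 800.1 to 1014 CPM in Control and to 1168 to 1464 CPM in DKD. The higher sum in DKD rested on the water channel Aqp2, at 199.4 ± 110.7 and 600.5 ± 122.0 CPM (log2 fold change 1.59 ± 0.44, edgeR adjusted p 0.104). At an unadjusted p under 0.05, 1 of the 12 was higher, against 2317 of all 19717 genes. With edgeR 0 of the 12 passed, 6 were higher and 6 lower, and the median was −0.08. DESeq2 called 1 of them, Aqp2, and limma-voom 0. The 8 markers of the distal convoluted and connecting tubule summed to 2389 to 4523 CPM in Control and to 2238 to 3503 CPM in DKD, with DKD replicate 2 the lowest, as for most members. The 8 thick limb markers overlapped as well (4952 to 6147 and 2765 to 6367 CPM). Summed proximal tubule markers lay between 21570 and 47980 CPM in the Control libraries, and between 12270 and 22380 CPM in the DKD libraries. Podocyte markers ran from 584.5 to 762.0 and from 404.9 to 522.7 CPM. Median log2 fold changes were −1.02 for proximal tubule, −0.55 for podocyte, −0.05 for thick limb and 0.16 for distal markers, against −0.38 for the members. All 12 proximal tubule markers were lower in DKD, 7 at an unadjusted p under 0.05, and edgeR called 2 (0.431% of all genes). Of the 10 podocyte markers 9 were lower, 7 at that p. All 8 endothelial markers were lower, 4 at that p, with a median of −0.67. At that p 1 thick limb marker was lower and 2 higher, and 1 distal marker each way. All 10 members were lower, 5 at that p, against 49.8% and 10.9% of all genes. The part of these differences in marker sums in the members' values was not tested.

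**Figure D5:**
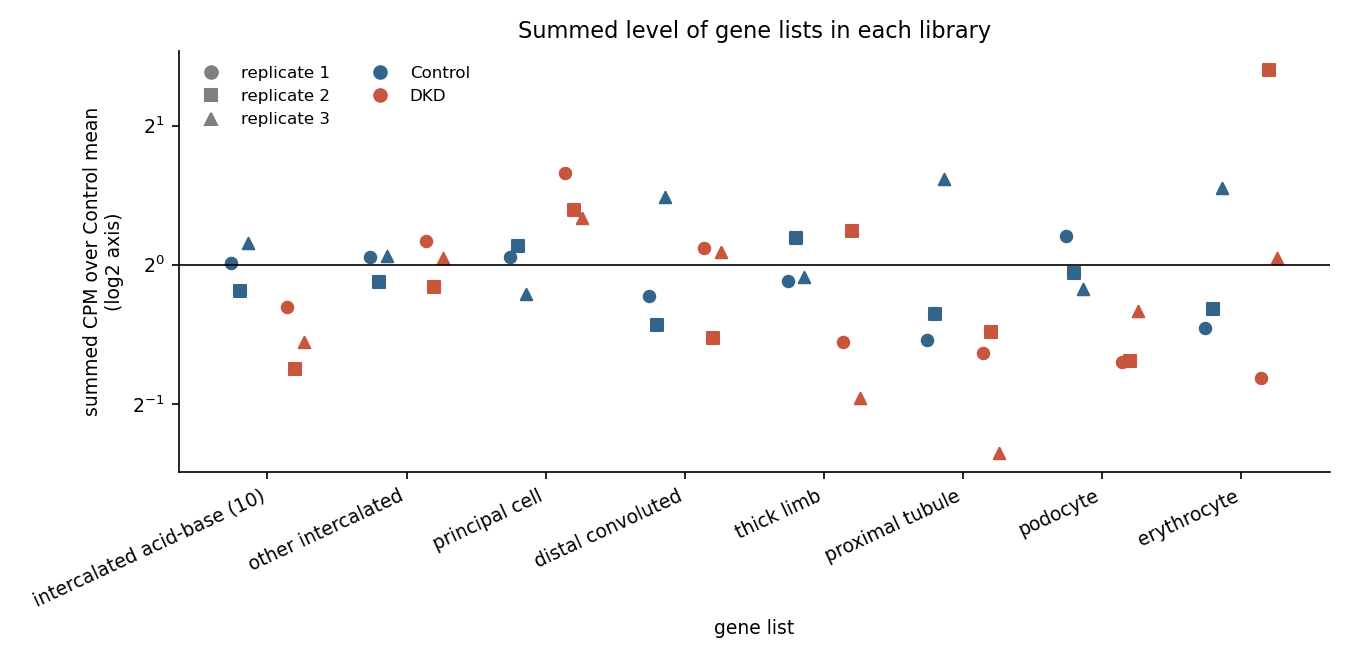
Points give the summed CPM of each gene list in each library divided by that list's Control mean, on a log2 axis (blue Control, red DKD, marker shape for the replicate number). The 10 intercalated cell acid-base genes lie below the Control libraries in DKD (532.7 to 726.3 against 783.9 to 998.4 CPM), and so do the podocyte markers. The principal cell sum lies above the Control libraries, which rested on Aqp2: 6 of its 12 genes had a fold change below 0. The other intercalated cell genes overlap.

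The genes whose profile over the 6 libraries lay closest to the members' mean were found by the root mean square difference of centred log2 CPM, among 13361 genes of at least 1 CPM. The closest was Alpl, the tissue-nonspecific alkaline phosphatase, with a difference of 0.0313 on the log2 scale. It was at 354.9, 284.4 and 355.1 CPM in Control, and at 273.7, 178.1 and 205.1 CPM in DKD, with the same order of DKD libraries as most members (log2 fold change −0.60 ± 0.19, edgeR adjusted p 0.136). Tmem41a (0.120), Snx30 (0.126), Tmem120a (0.132) and Iffo1 (0.134) followed. These 5 were chosen for this likeness, so their lower levels and order of libraries in DKD follow from the choice. Of these 5, Snx30 passed the edgeR test (log2 fold change −0.75 ± 0.13, adjusted p 0.0477), where 0.431% of all genes were called lower. That call reuses the values of the choice and is no separate result. The closest member was Atp6v1b1, at 0.154, and the farthest Slc26a4, at 0.411.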

How the data were processed

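RNA of isolated mouse glomeruli was measured in 3 Control and 3 DKD libraries. The authors deposited whole-number counts per Ensembl gene, without normalization, made with fastp, HISAT2, StringTie and edgeR on build GRCm39 per the submitters' processing notes. The sources used here give no versions, no annotation release and no use of strand. Values of 4 occurred 6267 times and of 3 and 5 3129 and 1993 times, so the counts may be coverage estimates turned into whole reads. Per the labels' protocols the libraries were poly(A)-selected, dUTP-marked and read in pairs of 150 bases.

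Symbols matched 55141 of 55401 identifiers, and exonic lengths came from GENCODE on GRCm38. Genes were kept by filterByExpr (minimum count 10), scaled by TMM and fitted in edgeR 4.0.16 (R 4.3.3) by glmQLFit, its quasi-likelihood model. Group was the sole covariate, and p-values were adjusted by Benjamini-Hochberg over all genes. SEs come from the fold change and the F statistic. DESeq2 1.42.0 and limma 3.58.1 served as alternatives. The script was tested on simulated data. Log2 CPM of replicates correlated at 0.954 to 0.980, and none was a duplicate. Alternatives were other scaling, filters, tools, the replicate number as a block, each library left out and, added after seeing the data, a length trend removed. Members, lists and tests were chosen with earlier results of these data known. Named genes were all members, per list the genes past the threshold (up to 4, or otherwise the 2 of smallest p) and the 5 closest in profile. Not all genes that rule takes are printed, and some items are not reported here.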

Additional observations from a re-analysis of the deposited data

How the results depend on the processing

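The number of members called was 0 with edgeR as reported, 3 with library totals as the only scaling (Slc26a4, Atp6v1b1 and Oxgr1), 3 with genes kept at 1 CPM or more in 3 or more libraries (Slc4a1, Slc26a4 and Atp6v1b1) and 4 with DESeq2. Library totals shifted the median of all genes to −0.13, and the filter tested 15046 genes. Over the fits that left out each library in turn it ran from 0 to 1, with 4 to 6 members lower at an unadjusted p under 0.05, against 7.11% to 11.5% of all genes. The median log2 fold change of the members ran from −0.57 to −0.32 over all 16 alternatives. Log2 fold changes correlated with exonic length over all genes (Spearman −0.249), longer genes tending to be lower in DKD. With that trend removed, edgeR called 0 members and 183 genes. The edgeR adjusted p was then 0.1 for Atp6v1b1, 0.108 for Oxgr1, 0.368 for Atp6v0a4, 0.0639 for Slc26a4 and 0.0561 for Slc4a1. Ratios between genes of unequal length were formed without this correction. Of single members, Atp6v1g3 changed sign once: leaving out each library, its log2 fold change ran from −0.49 without DKD replicate 1 to 0.022 without DKD replicate 2. Over all genes 228 were called, against 516 with the CPM filter, 56 without a filter, 2483 with DESeq2, and 1 (without Control replicate 1) to 386 (without Control replicate 3) when a library was left out. For counts that moved with the tool or the filter, other than by the number of genes tested, the cause was not tested. With the replicate number as a block, 0 genes were called by edgeR and 3322 had an unadjusted p under 0.05. Lower in DKD at that p were 4 members, against 7.71% of all genes. Deviations from the group means correlated at −0.183, 0.0663 and −0.224 between same-numbered libraries. Only DKD replicate 2 correlated best with the library of its own number. Deviations within a group of 3 constrain each other, so these values cannot decide whether same-numbered libraries were paired. With 3 libraries per group the spread between replicates limits what could be called.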
